A study of Mus musculus with 6 samples.

Results

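A set of 10 genes that carry or answer the response of cells to low oxygen was followed in RNA from mouse tumours. They were Hif1a, Ddit4, P4ha1, P4ha2, Mxi1, Bnip3, Egln1, Egln3, Ankrd37 and Ndrg1, chosen by name, and all 10 were found among the 28368 genes of the count table. All 10 also passed the filter on low counts, as did 18049 genes in all. Treated tumours, with 3 libraries, came from mice on a 12 h course of a therapy named MS-DF-MS. Control tumours, also with 3 libraries, came from untreated mice. The series concerns implanted depots that deliver a STING agonist and then an inducer of apoptosis, and asks how signalling from STING to interferon-beta is set up inside the tumour. The labels give neither the drugs, the tumour model, the strain, nor the age of the mice. None of the groups analysed here carried an empty depot, so drug and implant cannot be told apart. Whether the libraries of a group came from different animals is also unsaid, and the p-values therefore rest on a spread that could be technical in part.

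Cells sense oxygen through prolyl hydroxylases, which use oxygen to mark the alpha subunits of hypoxia-inducible factor (HIF) for destruction by the VHL ubiquitin ligase. When oxygen falls, the alpha subunits escape, pair with ARNT and bind a short DNA core in the control regions of their targets. Those targets slow growth, clear mitochondria, prepare collagen for secretion and, through the hydroxylases themselves, feed back on HIF. Solid tumours commonly hold poorly perfused regions, and several of these genes also answer to other stresses.

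Libraries held 57017043 to 66634551 counts. Among the 10 genes the lowest value was 227 counts, of Ankrd37 in control 3, and Egln3 held 281 to 575 counts. Relative counting error was therefore larger for Ankrd37 and Egln3 than for the others, which held at least 4050 counts. The part of counting error in the spread of Ankrd37 and Egln3 was not tested. Levels within a gene are given as CPM, counts scaled to the effective library size, and levels between genes as FPKM, fragments scaled to gene length and library size. On the first principal component of log2 CPM, treated 3 was at 72.9 and the remaining libraries were between -37.9 and 13.3. Treated 1 differed from the other libraries in its red blood cell markers, whose summed level per length was 1740, 564 and 310 FPKM in treated 1, 2 and 3 and 116 to 294 FPKM in controls. Its neutrophil markers were also the highest, with sums of 72.4, 20.1 and 6.03 FPKM in treated 1, 2 and 3 and 2.59 to 5.15 FPKM in controls. Of these lists 0 of 6 and 0 of 8 tested markers passed the edgeR threshold used below. At an unadjusted p under 0.05, 4 and 5 were higher, beside 9.12% of all tested genes. None of their markers found in the count table was at 0 in all 6 libraries. Pigment cell markers were abundant in both groups, with Tyrp1, an enzyme of melanin synthesis, at 2656 ± 146 FPKM in treated and 2499.6 ± 15.6 FPKM in control tumours (SD, n = 3). Whole tumours mix many cell types, and fewer cells of a type and less RNA per cell cannot be told apart.

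The DNA around the start of 5 of the genes is shown first, because the HIF core can be read in it. Each sequence is the RefSeq window of GRCm38.p6 from 250 bases before to 50 bases after the start, on the strand of the gene. RefSeq starts can lie inside the deposited span of a gene, as for P4ha2. Capitals mark ACGTG or GCGTG, the cores that HIF binds, or their reverse complements CACGT and CACGC where the core lies on the other strand. Ddit4, P4ha1 and P4ha2 are shown because they rose, and Ankrd37 because it had the largest fold change. Bnip3 is shown because its level did not separate the groups while its start holds the most matches, with a palindrome counted on both strands. Mxi1 also rose but is not shown, and its windows held 0, 1 and 1 match.
Ddit4 (chr10:59951721-59952020, minus strand): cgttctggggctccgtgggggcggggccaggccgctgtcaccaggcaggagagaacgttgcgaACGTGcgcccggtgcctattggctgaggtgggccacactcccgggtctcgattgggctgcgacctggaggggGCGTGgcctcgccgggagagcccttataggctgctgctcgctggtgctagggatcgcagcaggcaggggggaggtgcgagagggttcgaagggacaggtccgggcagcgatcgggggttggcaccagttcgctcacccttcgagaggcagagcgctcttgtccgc
P4ha1 (chr10:59323046-59323345, plus strand): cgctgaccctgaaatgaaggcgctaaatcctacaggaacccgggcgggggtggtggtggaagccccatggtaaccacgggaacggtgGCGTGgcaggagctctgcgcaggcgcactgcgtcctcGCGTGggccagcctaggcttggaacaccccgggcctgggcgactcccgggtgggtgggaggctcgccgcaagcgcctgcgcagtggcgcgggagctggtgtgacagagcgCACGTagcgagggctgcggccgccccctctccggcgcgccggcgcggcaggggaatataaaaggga
P4ha2 (chr11:54100674-54100973, plus strand): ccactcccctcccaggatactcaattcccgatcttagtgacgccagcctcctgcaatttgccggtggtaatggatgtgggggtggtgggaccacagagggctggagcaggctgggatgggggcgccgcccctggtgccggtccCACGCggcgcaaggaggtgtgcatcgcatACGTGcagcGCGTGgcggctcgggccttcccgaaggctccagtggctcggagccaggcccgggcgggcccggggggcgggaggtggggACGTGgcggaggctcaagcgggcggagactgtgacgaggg
Ankrd37 (chr8:45999801-46000100, minus strand): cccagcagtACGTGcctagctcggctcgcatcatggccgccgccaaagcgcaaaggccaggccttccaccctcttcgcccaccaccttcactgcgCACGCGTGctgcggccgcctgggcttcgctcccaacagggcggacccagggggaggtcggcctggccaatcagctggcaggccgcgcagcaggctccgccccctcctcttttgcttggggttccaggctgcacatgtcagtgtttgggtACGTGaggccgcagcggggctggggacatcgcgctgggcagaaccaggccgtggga
Bnip3 (chr7:138909457-138909756, minus strand): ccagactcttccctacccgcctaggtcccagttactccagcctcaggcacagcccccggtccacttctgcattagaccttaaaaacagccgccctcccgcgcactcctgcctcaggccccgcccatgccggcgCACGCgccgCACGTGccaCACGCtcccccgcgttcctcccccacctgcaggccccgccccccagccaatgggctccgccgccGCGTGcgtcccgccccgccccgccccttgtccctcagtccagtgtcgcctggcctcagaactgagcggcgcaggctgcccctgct

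With the first transcribed base as 1 and no base 0, Ddit4 held ACGTG from -187 to -183 and GCGTG from -115 to -111. P4ha1 held GCGTG from -163 to -159 and from -126 to -122, and ACGTG on the other strand from -16 to -12. P4ha2 held ACGTG from -78 to -74 and from 11 to 15, with GCGTG between them from -69 to -65 and on the other strand from -107 to -103. In Ankrd37 the 2 GCGTG matches, 1 on each strand, overlap within a single CACGCGTG, and ACGTG stood from -241 to -237 and from -6 to -2. Of the 5 matches in Bnip3, 2 are the forward and reverse readings of 1 palindrome, CACGTG, which is also the E-box read by MYC and MAX. With this palindrome counted once, Bnip3 held as many matches as P4ha2. All but Ndrg1 of the 10 genes had at least 1 window in the table, and all 9 held ACGTG on either strand in a window, Hif1a and Egln1 included. Mxi1 had 3 windows, of which 1 held neither core. Over all 32544 distinct windows of that length, 19.7% held ACGTG, 32.6% GCGTG and 44.0% at least 1 of them. Windows of these genes were 54.7 to 86.0% G and C, and among the 14557 windows at or above that lower value 25.2% held ACGTG. The genes were picked as known hypoxia targets, so this count is a description. A match is letters in a window and does not show that HIF was bound there.

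Across the 10 genes, 4 rose in treated tumours and none fell. The stress regulator Ddit4 and both collagen prolyl hydroxylase subunits, P4ha1 and P4ha2, rose 1.42-fold to 1.74-fold, and Mxi1 rose 1.26-fold at an adjusted p just under the threshold. Hif1a itself, the factor of the pathway, and the mitochondrial receptor gene Bnip3 overlapped between groups. A gene was called with edgeR's quasi-likelihood test where the p adjusted by Benjamini and Hochberg was under 0.05. Of all 18049 genes tested 1.36% rose and 0.249% fell by that rule, so 4 of 10 is above the general rate of rises. At an unadjusted p under 0.05, 8 of the 10 were higher and 0 lower, beside 9.12% and 6.90% of all tested genes. DESeq2 called 7 of the 10 higher and 0 lower, beside 4.95% and 2.41% of the 15237 genes to which it gave an adjusted p. With limma-voom 3 were called higher and 0 lower, beside 1.21% and 0.244% of all tested genes. All 3 treated libraries lay above all 3 controls for 7 of the 10, beside 12.0% of all tested genes, and for none did they all lie below, beside 11.2%. The median log2 fold change was 0.46 over the 10 genes and -0.003 over all tested genes. Earlier results of these data were known when the 10 genes were chosen, so these counts are no independent evidence for a direction. Endothelial genes also differed between the same libraries. Of 10 endothelial markers 5 rose and 0 fell, and at an unadjusted p under 0.05, 7 were higher and 1 lower. Their log2 fold changes ran from -0.49 to 1.45, with a median of 0.75. Their summed level was 81.3 to 85.3 FPKM in treated and 64.5 to 65.8 FPKM in control libraries, with none of the 10 at 0 in all libraries. Most of that sum was Eng, at a mean of 58.4 FPKM in treated and 51.1 FPKM in control tumours, which was not called (edgeR adjusted p = 0.131). The part of the endothelial markers in the changes of the hypoxia-inducible genes was not tested.

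**Figure D1:**
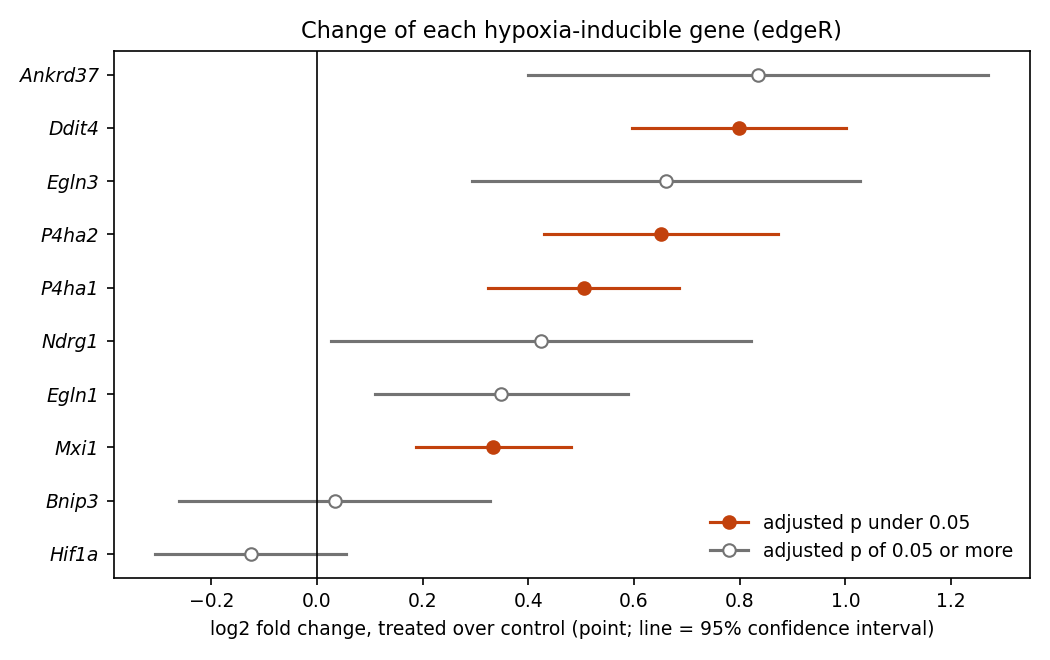
Log2 fold change of each of the 10 genes, treated over control tumours, on the horizontal axis, as edgeR estimates (points, filled where the adjusted p is under 0.05) with 95% confidence intervals not adjusted for multiple tests (lines). Ddit4, P4ha2, P4ha1 and Mxi1 are filled, and the intervals of Bnip3 and Hif1a cross 0.

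The oxygen-labile subunit was measured first. Hif1a (ENSMUSG00000021109, chromosome 12 from 73901375 to 73947530, plus strand) encodes the HIF-1 alpha protein, which is controlled mainly by its destruction rather than by its mRNA. Its level was 409, 464 and 471 CPM in treated 1, 2 and 3, against 457, 483 and 526 CPM in controls 1, 2 and 3. The groups overlapped, with treated 1 the lowest of the 6 libraries and control 3 the highest. The log2 fold change was -0.13 ± 0.08 (SE, n = 3 per group, edgeR adjusted p = 0.486), with a 95% interval from -0.31 to 0.05. These are mRNA levels, and the amount of HIF-1 alpha protein was not measured. A predicted gene on the opposite strand, Gm15283, spans the same region with 22 to 42 counts per library.

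The hydroxylases that mark HIF came next. Egln1 (ENSMUSG00000031987, chromosome 8 from 124908587 to 124949324, minus strand) encodes PHD2, the main oxygen sensor of most cells and itself a HIF target. It stood at 218, 285 and 283 CPM in treated 1, 2 and 3, against 212, 204 and 201 CPM in controls 1, 2 and 3. Treated 2 and 3 lay clear of the controls, while treated 1 exceeded the highest control by little. The log2 fold change was 0.35 ± 0.10 (SE, n = 3 per group, edgeR adjusted p = 0.166), and without treated 1 it was 0.47 and passed the threshold (edgeR adjusted p = 0.00886, and up to 0.437 over the alternatives). Egln3 (ENSMUSG00000035105, chromosome 12 from 54178981 to 54203860, minus strand) encodes PHD3, which is known as the more strongly oxygen-regulated sister enzyme. Its level was 8.80, 6.87 and 8.01 CPM in treated 1, 2 and 3, against 4.77, 5.26 and 4.93 CPM in controls 1, 2 and 3. All treated libraries lay above all controls, and here treated 1 was the highest. The log2 fold change was 0.66 ± 0.16 (SE, n = 3 per group, edgeR adjusted p = 0.1), with a 95% interval from 0.29 to 1.03. Per length, Egln1 was 25.1 ± 6.29 times as abundant as Egln3 in treated and 30.7 ± 2.10 times in control tumours (SD of the FPKM ratio, n = 3). In treated 1 that ratio was 18.4, below the 26.2 to 32.9 of the other 5 libraries.

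Collagen prolyl 4-hydroxylase hydroxylates proline in new collagen chains so that the triple helix is stable, and P4ha1 and P4ha2 encode alternative forms of its catalytic subunit. P4ha1 (ENSMUSG00000019916, chromosome 10 from 59323296 to 59373304, plus strand) stood at 243, 219 and 199.9 CPM in treated 1, 2 and 3, against 153, 158 and 156 CPM in controls 1, 2 and 3. The controls lay within a few CPM of each other and every treated library was above them. P4ha1 rose 1.42-fold (log2 fold change 0.50 ± 0.08 SE, n = 3 per group, edgeR adjusted p = 0.0221). P4ha2 (ENSMUSG00000018906, chromosome 11 from 54100095 to 54131662, plus strand) stood at 136, 109 and 113 CPM in treated 1, 2 and 3, against 79.4, 77.3 and 71.0 CPM in controls 1, 2 and 3. The groups again did not overlap, and treated 1 was the highest library for both subunits. P4ha2 rose 1.57-fold (log2 fold change 0.65 ± 0.10 SE, n = 3 per group, edgeR adjusted p = 0.0185). The FPKM ratio of P4ha1 to P4ha2 was 2.82 ± 0.202 in treated and 3.12 ± 0.206 in control tumours (SD, n = 3), with overlapping values. Leaving out treated 2 or any 1 control ended the call of P4ha1 (edgeR adjusted p up to 0.137), and leaving out any 1 control ended that of P4ha2 (up to 0.116).

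Ddit4 and Mxi1 both encode brakes on growth. Ddit4 (ENSMUSG00000020108, chromosome 10 from 59949669 to 59951834, minus strand) encodes REDD1, which restrains the growth kinase mTORC1 through the TSC complex and is induced by low oxygen, glucocorticoids and several stresses. It stood at 136, 152 and 170 CPM in treated 1, 2 and 3, against 87.4, 90.9 and 85.5 CPM in controls 1, 2 and 3. Every treated library was far above the controls, which were tightly grouped. Ddit4 rose 1.74-fold (log2 fold change 0.80 ± 0.09 SE, n = 3 per group, edgeR adjusted p = 0.00402), ranked 83 of all tested genes by p. Its call held under all 14 alternative settings, 6 of which left out a library (edgeR adjusted p up to 0.0365). Mxi1 (ENSMUSG00000025025, chromosome 19 from 53310518 to 53375810, plus strand) encodes a partner of MAX that opposes MYC at shared target genes. Its level was 97.9, 107 and 108 CPM in treated 1, 2 and 3, against 84.4, 82.2 and 81.7 CPM in controls 1, 2 and 3. The groups did not overlap, although the shift was small. Mxi1 rose 1.26-fold (log2 fold change 0.33 ± 0.06 SE, n = 3 per group, edgeR adjusted p = 0.04997). This call was lost with RLE size factors (edgeR adjusted p = 0.0536) and in every leave-out but that of treated 1 (up to 0.265).

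Bnip3, Ankrd37 and Ndrg1 are HIF targets that act on mitochondria or have less settled roles. Bnip3 (ENSMUSG00000078566, chromosome 7 from 138890836 to 138909519, minus strand) encodes a receptor in the outer mitochondrial membrane that directs mitochondria to autophagy. It stood at 446, 623 and 632 CPM in treated 1, 2 and 3, against 548, 529 and 585 CPM in controls 1, 2 and 3. Treated 1 was the lowest of the 6 libraries and treated 2 and 3 the highest, so the groups overlapped on both sides. The log2 fold change was 0.03 ± 0.13 (SE, n = 3 per group, edgeR adjusted p = 0.933), with a 95% interval from -0.26 to 0.33. Its relative Bnip3l, also a mitophagy receptor, followed the same order of libraries, and the FPKM ratio of Bnip3 to Bnip3l was 4.27 ± 0.0593 in treated and 4.25 ± 0.123 in control tumours (SD, n = 3). Ndrg1 (ENSMUSG00000005125, chromosome 15 from 66929318 to 66969640, minus strand) encodes a cytoplasmic protein linked to differentiation and stress. It stood at 127, 203 and 211 CPM in treated 1, 2 and 3, against 130, 137 and 138 CPM in controls 1, 2 and 3. Treated 1 was just below the lowest control while treated 2 and 3 were well above the highest. The log2 fold change was 0.42 ± 0.17 (SE, n = 3 per group, edgeR adjusted p = 0.285), and without treated 1 it was 0.62 and passed the threshold (edgeR adjusted p = 0.00386, and up to 0.524 over the alternatives).

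Ankrd37 (ENSMUSG00000050914, chromosome 8 from 45996902 to 45999867, minus strand) encodes a small ankyrin repeat protein. It stood at 7.14, 7.47 and 9.91 CPM in treated 1, 2 and 3, against 4.85, 4.91 and 3.98 CPM in controls 1, 2 and 3. All treated libraries were above all controls, and this was the largest fold change of the 10. The log2 fold change was 0.84 ± 0.19 (SE, n = 3 per group, edgeR adjusted p = 0.0851), with a 95% interval from 0.40 to 1.27. DESeq2 called Ankrd37, Egln3 and Egln1 (DESeq2 adjusted p = 0.00275 for Ankrd37, 0.00927 for Egln3 and 0.0223 for Egln1). Over the alternatives the adjusted p reached 0.278 for Ankrd37 and 0.311 for Egln3. The end of Ankrd37 overlaps that of Ufsp2 on the opposite strand, a gene with 2597 to 3124 counts per library. Lrp2bp, also on the opposite strand, overlaps Ankrd37 from 45999303 onward and had 19 to 61 counts per library. Whether strand was used in counting is not given, so reads in those overlaps cannot be assigned with certainty. For Ufsp2 the log2 fold change was -0.11 ± 0.06 (SE, n = 3 per group, edgeR adjusted p = 0.446), opposite in sign to that of Ankrd37.

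**Figure D2:**
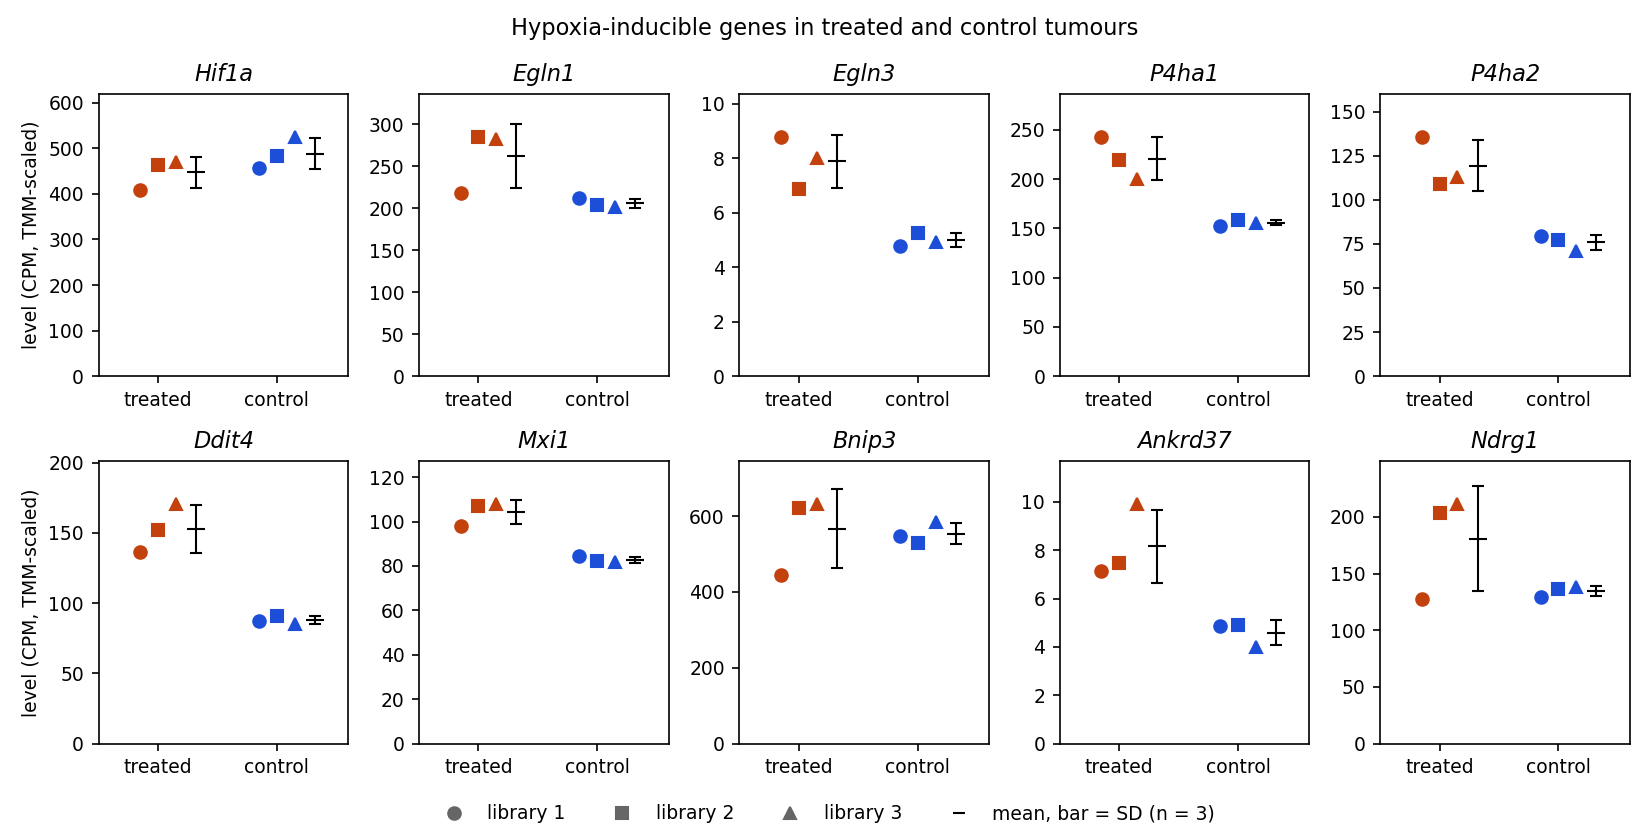
Level of each of the 10 genes in CPM (TMM-scaled, each vertical axis starting at 0) in 3 treated libraries on the left and 3 control libraries on the right of each panel, with single libraries as symbols and mean ± SD as bars. Groups are separate for 7 genes and overlap for Hif1a, Bnip3 and Ndrg1.

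The treated libraries did not behave alike. Against the mean of the controls, treated 1 had the lowest value of the 3 treated libraries for 7 of the 10 genes and the highest for the other three, P4ha1, P4ha2 and Egln3. Ndrg1 differed from the mean control level by -0.08, 0.59 and 0.65 on the log2 scale for treated 1, 2 and 3, and Bnip3 by -0.31, 0.17 and 0.19. P4ha2 differed by 0.84, 0.52 and 0.57, with treated 1 the highest. Over all tested genes treated 1 was the lowest treated library for 36.1%. Treated 1 is also the library with the highest red blood cell and neutrophil marker sums given above, and their part in these values was not tested. Without treated 1, 6 of the 10 genes rose, namely Ddit4, P4ha1, P4ha2, Mxi1, Egln1 and Ndrg1, beside 1.24% of the 18687 genes tested in that fit. Without treated 3, 1.64% of all genes tested rose, and of the 10 genes Ddit4, P4ha1 and P4ha2 kept their calls and Mxi1 did not (edgeR adjusted p = 0.107). With each control left out in turn, only Ddit4 was called each time, beside 0.502 to 0.679% of all genes tested.

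**Figure D3:**
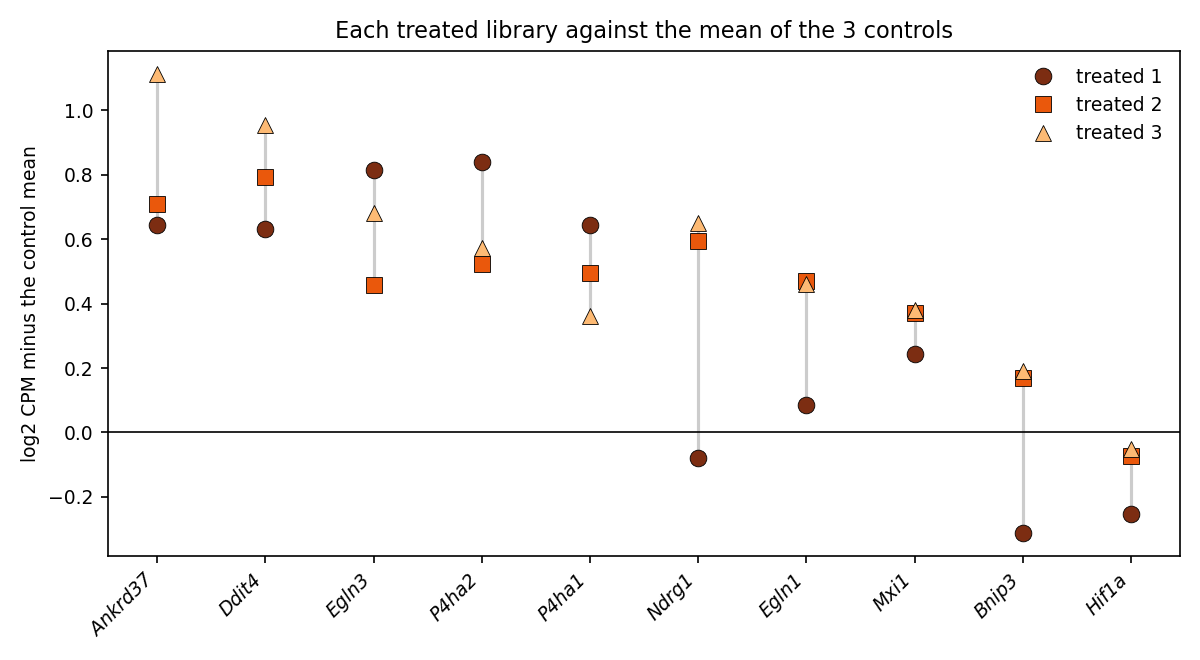
Difference in log2 CPM between each treated library and the mean of the 3 controls (vertical axis) for the 10 genes, ordered by fold change. Treated 1 lies lowest for Ndrg1, Egln1 and Bnip3 and highest for P4ha2, P4ha1 and Egln3.

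Levels can be compared between genes per length, with the deposited FPKM. In treated tumours the order from high to low was Bnip3, Ddit4, Hif1a, Egln1, P4ha1, Ndrg1, P4ha2, Mxi1, Ankrd37 and Egln3. In control tumours Hif1a and Egln1 stood above Ddit4. Bnip3 was at 221 ± 39.6 FPKM in treated and 217 ± 11.4 FPKM in control tumours (SD, n = 3), above 99.0% of tested genes by its mean. Ddit4 was at 76.9 ± 8.83 FPKM in treated and 44.4 ± 1.33 FPKM in control tumours, and Egln3, the lowest, at 2.62 ± 0.358 FPKM in treated and 1.66 ± 0.0821 FPKM in control tumours (SD, n = 3). In controls only the neighbours P4ha2 and Mxi1 overlapped in range. In treated tumours Ddit4, Hif1a and Egln1 overlapped with one another in range, as did Ndrg1 with P4ha2.

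Other parts of the oxygen-sensing machinery showed no edgeR call. Of 17 tested genes for HIF subunits and their regulators, 0 passed the edgeR threshold. At an unadjusted p under 0.05, 4 were higher and 1 lower, beside 9.12% and 6.90% of all tested genes. DESeq2 called 1 higher and 1 lower, beside its 4.95% and 2.41% of all genes, and limma-voom 0. The median log2 fold change of the 17 was 0.03. Epas1, which encodes HIF-2 alpha and is prominent in endothelium, was 0.60 ± 0.14 higher on the log2 scale (edgeR adjusted p = 0.0959), and all treated libraries were above the controls. The part of the endothelial markers given above in the Epas1 value was not tested. Eloc, a subunit of the VHL ligase, had -0.25 ± 0.06 (edgeR adjusted p = 0.117), its partner Elob 0.08 ± 0.07 (0.642) and the secretory-pathway lectin Os9 0.19 ± 0.07 (0.231).

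The list of further HIF targets held a pair of calls. Of 40 tested, 2 rose and 0 fell, beside 1.36% and 0.249% of all tested genes. Their log2 fold changes ran from -1.91 to 1.75, with a median of 0.15 and 13 of them negative. At an unadjusted p under 0.05, 15 were higher and 1 lower, beside 9.12% and 6.90% of all tested genes. DESeq2 called 10 higher and 0 lower, beside its 4.95% and 2.41% of all genes, and limma-voom 2 and 0, beside 1.21% and 0.244%. Angptl4, a secreted inhibitor of lipoprotein lipase, rose 2.19-fold (4.89 ± 0.528 FPKM in treated and 2.25 ± 0.327 FPKM in control tumours, SD, n = 3, edgeR adjusted p = 0.0103). Jmjd6, a hydroxylase of lysine in splicing proteins, rose 1.31-fold (33.3 ± 1.89 FPKM in treated and 25.6 ± 1.33 FPKM in control tumours, SD, n = 3, edgeR adjusted p = 0.0355). Angptl4 lost its call without treated 2, control 1 or control 2 (edgeR adjusted p up to 0.0805), and Jmjd6 in every leave-out but that of treated 1 (up to 0.227). Pdgfb, a growth factor that endothelium uses to recruit pericytes, was at 1.15 ± 0.22 on the log2 fold scale (edgeR adjusted p = 0.0511) and Fam162a, the most abundant of the list, -0.12 ± 0.06 (0.394). The part of the endothelial markers given above in the values of Pdgfb and Angptl4 was not tested. Vegfa, the vessel growth factor, and Car9, the carbonic anhydrase used as a marker of hypoxia, were named after their values were seen. Vegfa stood at 45.2, 59.1 and 74.3 FPKM in treated 1, 2 and 3, against 46.1, 44.7 and 45.4 FPKM in controls 1, 2 and 3 (log2 fold change 0.40 ± 0.16 SE, edgeR adjusted p = 0.267). Car9 stood at 59.1, 95.1 and 115 FPKM in treated 1, 2 and 3, against 128, 123 and 112 FPKM in controls 1, 2 and 3 (-0.42 ± 0.21, edgeR adjusted p = 0.375). For both, treated 1 was the lowest treated library, as it was for 7 of the 10 genes and 36.1% of all tested genes. For P4ha1, P4ha2 and Egln3 it was the highest. Vegfa and Car9 were picked with these values known, so they are no independent evidence for that pattern.

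The glycolytic targets of HIF held no edgeR call. Of 23 tested, 0 passed the edgeR threshold. At an unadjusted p under 0.05, 4 were higher and 1 lower, beside 9.12% and 6.90% of all tested genes. DESeq2 called 1 higher, beside its 4.95% of all genes, and limma-voom 0. The median log2 fold change was 0.05. Pgk1, a glycolytic kinase, was at 1437 ± 83.6 FPKM in treated and 1524 ± 61.0 FPKM in control tumours (SD, n = 3, log2 fold change -0.08 ± 0.06, edgeR adjusted p = 0.595). Slc2a1, the glucose transporter GLUT1, had 0.37 ± 0.13 (edgeR adjusted p = 0.215), the lactate exporter gene Slc16a3 0.25 ± 0.08 (0.214) and the phosphofructokinase gene Pfkp 0.21 ± 0.06 (0.167).

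Genes that work beside the collagen hydroxylases were called once by edgeR. Of 19 tested genes of collagen hydroxylation and crosslinking, Serpinh1 rose and 0 fell, beside 1.36% and 0.249% of all tested genes. Their median log2 fold change was 0.04. At an unadjusted p under 0.05, 4 were higher and 1 lower, beside 9.12% and 6.90% of all tested genes. DESeq2 called 3 higher, beside its 4.95% of all genes, and limma-voom 1. Serpinh1, the collagen chaperone HSP47, rose 1.38-fold (376 ± 26.9 FPKM in treated and 275 ± 14.5 FPKM in control tumours, SD, n = 3, edgeR adjusted p = 0.0245), a call kept in the leave-outs only without treated 3 (edgeR adjusted p up to 0.134 in the others). P4hb, the protein disulfide isomerase that forms the other subunit of collagen prolyl 4-hydroxylase, was at -0.16 ± 0.09 on the log2 fold scale (edgeR adjusted p = 0.442) and lay in every treated library below every control. The lysyl hydroxylases Plod3 and Plod1 had 0.34 ± 0.09 (edgeR adjusted p = 0.115) and 0.23 ± 0.06 (0.143). Fibroblast markers had 0 of 10 calls, 2 higher at an unadjusted p under 0.05, and summed levels of 59.2 to 70.4 FPKM in treated and 39.0 to 69.4 FPKM in control libraries. Their part in the rise of the collagen enzymes was not tested.

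Lists around Ddit4, Mxi1, Bnip3 and Ndrg1 held no edgeR call. Among 13 mTORC1 and TSC genes the median log2 fold change was 0.02, and Deptor, an inhibitor of mTOR, had -0.57 ± 0.12 (edgeR adjusted p = 0.0749), Mtor 0.16 ± 0.07 (0.321), Sesn2 -0.22 ± 0.16 (0.578) and Akt1s1 0.09 ± 0.08 (0.617). Glucocorticoids also induce Ddit4, and of 12 genes known to respond to them the median was 0.20, with Zbtb16 at 1.93 ± 0.52 (edgeR adjusted p = 0.131), Sgk1 at 0.50 ± 0.15 (0.182) and the metallothionein Mt2 at -0.43 ± 0.11 (0.115). Zbtb16 was scarce, with 91 to 135 counts in treated and 12 to 53 counts in control libraries. In the MYC, MAX and MXD network of 10 genes the median was -0.005, with the MAX partners Mxd1 at 0.56 ± 0.17 (edgeR adjusted p = 0.174) and Mxd4 at 0.50 ± 0.16 (0.189), the MAX-like factor Mlx at 0.15 ± 0.06 (0.307) and Max at 0.10 ± 0.08 (0.562). Among 17 mitophagy genes the median was 0.07, with the autophagy kinase Ulk1 at 0.26 ± 0.09 (edgeR adjusted p = 0.218), the receptor Sqstm1 at 0.23 ± 0.09 (0.261) and Gabarap at 0.14 ± 0.07 (0.398). The relatives of Ndrg1 were at 0.05 ± 0.06 (Ndrg3, edgeR adjusted p = 0.736), 0.01 ± 0.15 (Ndrg2, 0.987) and -0.003 ± 0.21 (Ndrg4, 0.997). At an unadjusted p under 0.05 the mTORC1 list had 0 higher and 1 lower, the glucocorticoid list 3 and 1, the MYC list 3 and 0, the mitophagy list 2 and 0 and the Ndrg relatives 0 and 0. Over all tested genes, 9.12% were higher and 6.90% lower at that cutoff. DESeq2 called 0 and 1, 1 and 1, 2 and 0, 0 and 0, and 0 and 0 in the same order of lists, and limma-voom 0 in each. Over all genes DESeq2 called 4.95% higher and 2.41% lower.

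**Figure D4:**
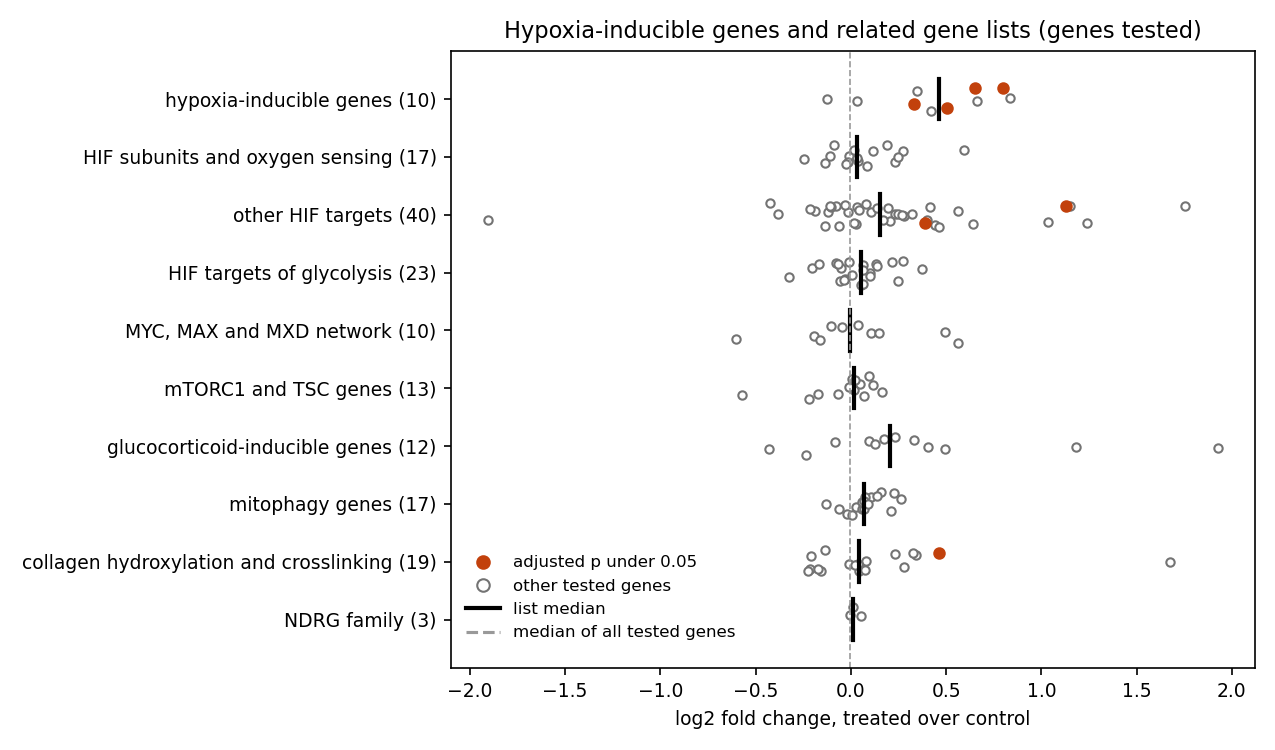
Log2 fold change, treated over control tumours, of each tested gene (points, filled where the adjusted p is under 0.05 and spread vertically at random) in the 10 hypoxia-inducible genes and 9 related lists, with the number of genes tested in parentheses, list medians as thick bars and the median of all tested genes as a dashed line. The median is 0.46 for the 10 genes and between -0.005 and 0.20 for the other lists.

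Over the 6 libraries, 5 genes outside the set had the profile most like the mean of the 10 genes' centred and scaled log2 CPM, with a Pearson r of 0.99 each. They were Llgl1, C2cd3, Plekhg2, Kdm7a and Adm, the gene of the vessel-dilating peptide adrenomedullin, a HIF target in the list above. Of 12387 genes compared, 101 had an r above 0.95, over 6 points that share 1 group difference. The 5 genes were picked by likeness to that profile, so a group difference in them is no independent evidence. Llgl1, C2cd3, Plekhg2 and Kdm7a had log2 fold changes of 0.23 ± 0.07, 0.29 ± 0.07, 0.37 ± 0.10 and 0.38 ± 0.08 (SE, edgeR adjusted p = 0.175, 0.0953, 0.118 and 0.0822). Adm stood at 10.8, 17.5 and 24.4 FPKM in treated 1, 2 and 3, against 7.22, 7.54 and 7.66 FPKM in controls 1, 2 and 3 (log2 fold change 1.24 ± 0.26 SE, edgeR adjusted p = 0.0671).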

How the data were processed

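Poly(A)-selected RNA of 6 tumour libraries was sequenced in pairs of reads with strand marked, per the labels' protocols. Per the submitters' processing notes, fastp, StringTie and edgeR were used, with no roles stated. Aligner, build and strand setting: not given in the sources used here. The authors deposited raw counts and FPKM per gene in 1 table, per the file headers; the FPKM column of control 2 carries an extra suffix. For 8 of the 10 genes the deposited span equals that in GENCODE M21 (GRCm38).

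The deposited counts were fitted with edgeR 4.0.16 under R 4.3.3: filterByExpr (minimum count 10, minimum total 15; 18049 genes kept, 10319 removed), TMM (factors 0.974 to 1.014), glmQLFit and glmQLFTest on the group with all 6 libraries, Benjamini-Hochberg over all genes tested, threshold 0.05. For 58 rows with a repeated symbol, the symbol went to the row with the highest mean count. CPM values are TMM-scaled, and FPKM gave levels between genes and of other genes and markers. log2 CPM used a prior count of 2. Alternatives were DESeq2 1.42.0, limma-voom (limma 3.58.1), other scalings and filters, a replicate block, and each library left out. The fit was tested on simulated data with planted changes larger than those of the 10 genes, so that test does not cover changes of their size. The genes and lists were chosen with earlier results of these data known. Named genes are the 10, up to 4 per pathway list (3 smallest p and highest mean FPKM), the most abundant of each marker list and the 5 most alike. Vegfa, Car9 and Bnip3l were added after their values were seen, and Ufsp2, Lrp2bp and Gm15283 for their overlap. Depth was 57017043 to 66634551 counts per library.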

Additional observations from a re-analysis of the deposited data

How the results depend on the processing

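Direction was kept in 138 of 140 repeats over the 10 genes and 14 alternatives, and the exceptions were both Bnip3, which ran from -0.052 to 0.18 with 1 library left out and was negative without treated 2 (-0.036) and without treated 3. Mxi1 lost its call with RLE factors (log2 fold change 0.33), upper quartile factors (0.32), limma-voom (0.33) and no filter (0.34). DESeq2 called 7 of the 10 genes, 754 genes higher and 367 lower in all, and 17 higher and 3 lower of the 148 tested pathway genes (3 and 0 by edgeR), adding Egln1 (0.35), Egln3 (0.66) and Ankrd37 (0.83). Without a filter, 1 pathway gene was higher and 10 genes fell in all; under a stricter filter the counts were 6 and 68. With 1 library left out, 1 to 6 of the 10 genes were called, 94 to 308 genes rose and 3 to 39 fell in all, and 0 to 8 pathway genes rose and 0 to 1 fell. In those repeats log2 fold changes ran from 0.43 to 0.57 for P4ha1, 0.55 to 0.72 for P4ha2, 0.31 to 0.38 for Mxi1, 0.29 to 0.47 for Egln1 and 0.30 to 0.62 for Ndrg1. The cause of these differences was not tested. A fit without 1 library also has fewer samples than the main fit.

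The labels do not say whether libraries of the same number form pairs. Deviations of same-numbered libraries from the group means correlated at 0.09, -0.16 and -0.11, and 2 of 6 libraries correlated best with their own number. With 3 libraries per group these values cannot settle whether the numbers mark pairs. With the replicate block, 2 of the 10 genes were called, P4ha1 (log2 fold change 0.50) and Mxi1 (0.33) no longer among them, 1 pathway gene was higher, and 123 genes rose and 14 fell in all.

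Of 46 other named genes, those that changed sign lay near 0 or, for the muscle gene Acta1, varied widely. Ndrg2 was at -0.0057 with upper quartile factors, -0.0067 without scaling factors and -0.0041 by limma-voom, and ran from -0.10 to 0.14 with 1 library left out. Ndrg4 was at 0.0057 without a filter and with the replicate block, and ran from -0.17 to 0.14. Acta1 had 0.29 ± 1.19, -1.73 by limma-voom and -1.25 with the replicate block, and ran from -1.97 to 0.87. Angptl4, Jmjd6 and Serpinh1 each lost their call in at least 1 leave-out. With the replicate block Angptl4 (edgeR adjusted p = 0.0758) and Jmjd6 (0.0828) lost it, and without a filter Jmjd6 (0.0585) and Serpinh1 (0.0716). Depth was at least 227 counts per library for each of the 10 genes.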

Other observations

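The spread within the groups was unequal. The SD of log2 CPM was larger in treated than in control tumours for all 10 hypoxia-inducible genes, as it was for 58.9% of the 18049 tested genes. Ndrg1 was the widest, with a coefficient of variation of 25.7% in treated and 3.37% in control tumours (n = 3 each), and Hif1a had the most similar values, with 7.58% in treated and 7.12% in control tumours. The median SD of log2 CPM over all tested genes was 0.187 in treated and 0.15 in control tumours. With 3 libraries a group this difference in spread was not tested.

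Over the 6 libraries the 10 genes formed no single profile. Pearson r between log2 CPM was 0.99 for Ddit4 and Mxi1, 0.97 for P4ha1 and P4ha2 and 0.95 for Egln1 and Ndrg1, while it was -0.80 for Hif1a and P4ha2 and -0.26 for P4ha2 and Bnip3. Every negative r involved Hif1a or Bnip3, and among pairs of the other genes r ran from 0.37 to 0.99. These values describe 6 points that share 1 group difference. Markers of other cells that differed among the treated libraries included macrophage genes, with summed levels of 156, 88.5 and 42.6 FPKM in treated 1, 2 and 3 and 96.3 to 129 FPKM in controls. T cell genes summed to 5.89, 4.22 and 3.88 FPKM in treated 1, 2 and 3 and 5.55 to 6.29 FPKM in controls. Much of these sums was Lck, at 3.00, 2.59 and 2.85 FPKM in treated 1, 2 and 3 and 2.41 to 2.98 FPKM in controls. Of 10 T cell genes 9 had a negative log2 fold change, with a median of -0.70, and 0 were called by edgeR. At an unadjusted p under 0.05, 2 were lower and 0 higher, beside 6.90% and 9.12% of all tested genes. All treated libraries lay below all controls for 3 of the T cell genes, beside 11.2% of all tested genes. Skeletal muscle, skin and fat genes summed to 104, 19.5 and 9.26 FPKM in treated 1, 2 and 3 and 16.1 to 31.5 FPKM in controls. Of the most abundant genes of these lists, none was called: on the log2 fold scale Lyz2 was at -0.80 ± 0.40 (edgeR adjusted p = 0.375), Lck, the 1 T cell gene with a positive value, 0.09 ± 0.14 (0.802), S100a9 3.78 ± 0.93 (0.107), Hbb-bs 2.26 ± 0.59 (0.122), Col1a1 0.39 ± 0.16 (0.293), Eng 0.20 ± 0.05 (0.131), Tyrp1 0.09 ± 0.05 (0.375) and Acta1 0.29 ± 1.19 (0.939).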
